A study of Mus musculus with 6 samples.

Results

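The genes examined were 10 imprinted genes that have been tied to stem cell quiescence: H19, Igf2, Igf2r, Grb10, Dlk1, Meg3, Ndn, Peg3, Plagl1 and Mest. The genes were chosen with earlier results of these data known. Their probe sets were chosen by annotation alone, as those paired with exactly 1 gene symbol from this set, and every such probe set was kept. This gave 37 of the 45037 probe sets on the array, covering 9 of the 10 genes. The single H19 probe set is annotated to a microRNA gene as well, so H19 has no value here. Meg3 had 11 probe sets, Ndn 8, Peg3 5, Grb10 and Plagl1 3 each, Igf2, Igf2r and Dlk1 2 each, and Mest 1.

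The cells were long-term haematopoietic stem cells (LT-HSCs), sorted from mouse bone marrow by the phenotype Lin- Sca1+ CD150+ CD48-. The dKO group came from mice with floxed c-myc and N-myc alleles and the MxCre transgene (3 arrays, each a pool of 3 mice). The control group came from mice with the same floxed alleles and no MxCre (3 arrays, each a pool of 2 mice). One control pool is labelled with M-Myc in place of N-myc. All mice were 8 weeks old, on a mixed background, and had received 2 daily doses of pI-pC, a synthetic double-stranded RNA, the last 3 days before marrow was taken. MxCre is switched on by interferon and is not restricted to stem cells, so other cells of the same marrow can lose both Myc genes too. The presence of MxCre and the pool size both differ between the groups along with Myc loss, and their effects cannot be told apart.

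Imprinted genes are transcribed mainly from the copy inherited from 1 parent, which is set by DNA methylation laid down in the germ line. Many act on growth: Igf2 is a growth factor, Igf2r clears it from the cell surface, Grb10 restrains signalling by the insulin and IGF receptors, and Dlk1 is a transmembrane protein with EGF-like repeats. H19 and Meg3 are noncoding RNAs made from the maternal copy of the Igf2 and Dlk1 domains. In mouse blood stem cells both domains have been linked to dormancy, and necdin, the product of Ndn, has been described as a brake on stem cell division. The array cannot tell the 2 parental copies apart, so every value below is the sum of both.

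Values are log2 expression values, so a difference of 1 is a doubling, and no level is compared between probe sets. A difference was called when limma's p, adjusted over all 45037 probe sets by the Benjamini-Hochberg method, was under 0.05. Array medians lay between 5.90 and 5.97. The 3 negative control probe sets (a bacterial gene with no mouse target) spanned 2.13 to 3.92 over the 6 arrays, and a value in that range is not distinguishable from background. Both deleted genes were lower in dKO arrays: Myc averaged 7.43 ± 0.30 in dKO and 10.36 ± 0.23 in control arrays (SD, n = 3 each), and 2 of the 3 Mycn probe sets were called lower. Whether these probe sets lie within the deleted segments is not known here. The arrays were scaled to each other before deposit, so fewer cells of a type and less RNA per cell cannot be told apart.

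Of the 37 probe sets, 4 were called lower in dKO cells, 1 was called higher and 32 were not called. The lower calls were all 3 Grb10 probe sets and 1 of 2 for Igf2r, and the higher call was 1 of 2 for Dlk1. Across the array 3.41% of probe sets were called lower, 3.57% higher and 6.99% in either direction, against 13.5% of the probe sets described here. Probe sets annotated to 1 gene are not independent of each other, and these calls fall in 3 genes. Without control replicate 1 or 2 the 4 lower calls became 2, and with any array omitted the higher call was lost. The dKO and control arrays did not overlap at 10 of the 37 probe sets (27.0%), 5 with dKO above and 5 with dKO below, which is close to the 27.4% of all probe sets without overlap. The median log2 change was -0.05 over the 37 probe sets and -0.01 over the whole array. At 6 of the 37, in Ndn, Peg3 and Meg3, dKO and control means alike lay at or under negative control levels, so those probe sets say nothing about the gene. The plot of all array values shows the 3 Grb10 and 2 Igf2r probe sets with dKO arrays wholly below the control arrays.

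**Figure D1:**
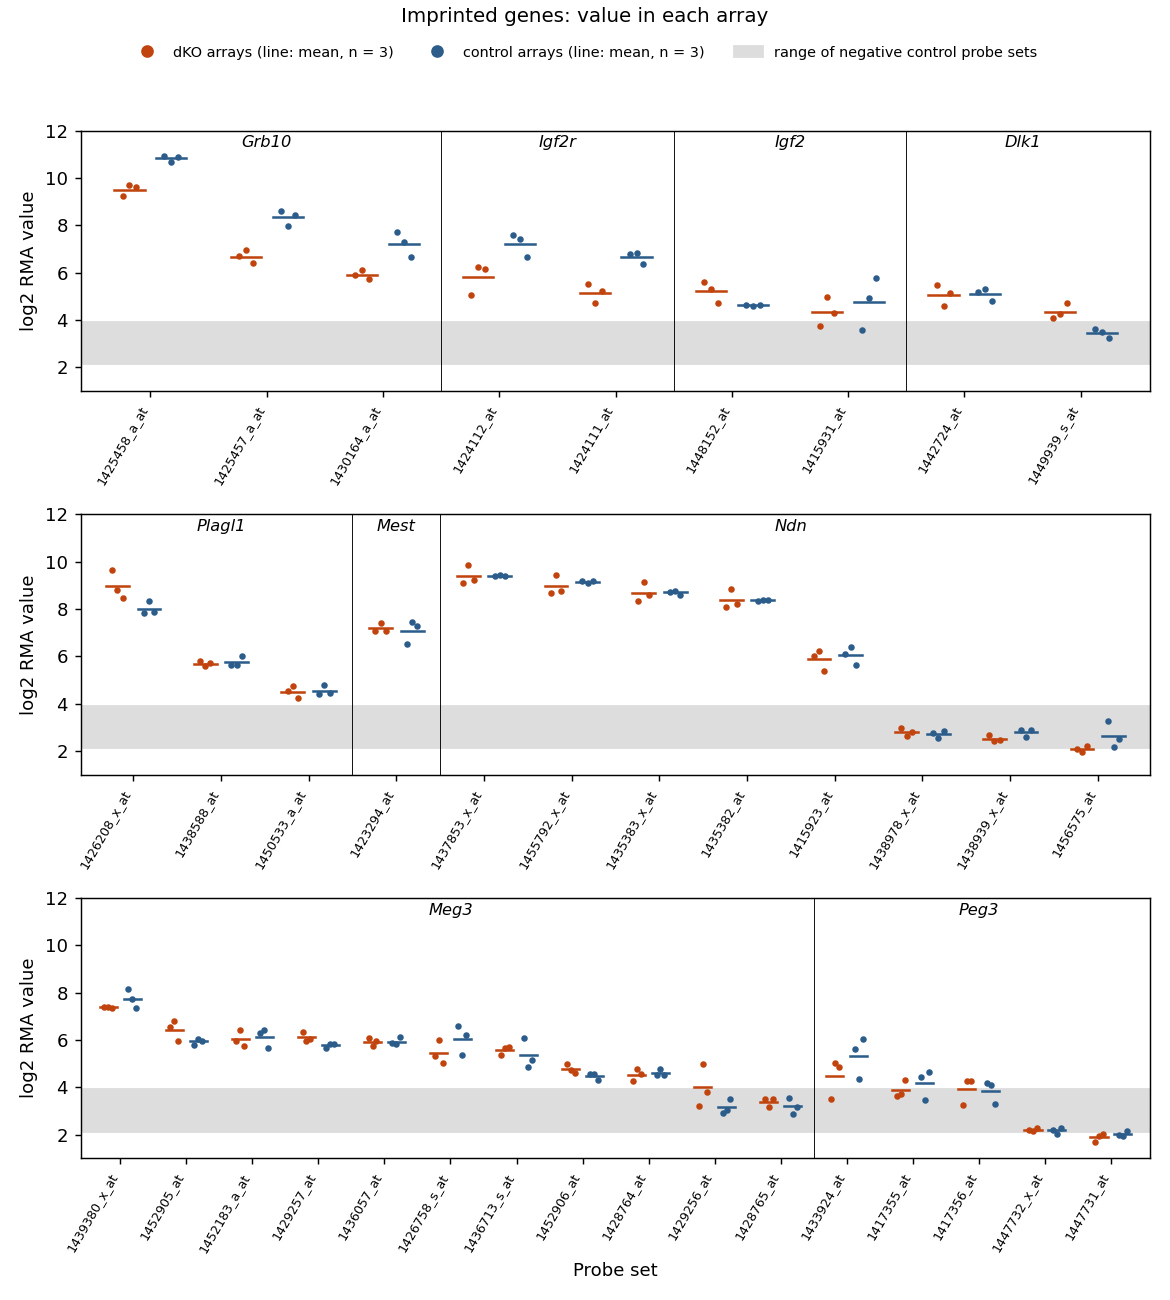
Log2 RMA value (vertical axis) of each imprinted-gene probe set (horizontal axis) in each dKO array (red) and control array (blue). Points are arrays, lines are means of 3 arrays, and the grey band is the negative control range, 2.13 to 3.92. Grb10 and Igf2r lie lower in all dKO arrays, while the bright Ndn and Meg3 probe sets overlap between groups.

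The annotated start regions of Grb10 and Igf2r, the pair of genes with probe sets called lower, are printed here because Myc proteins bind the E-box CACGTG. Each window runs from 250 bases before to 50 after a transcript start, read 5′ to 3′ on the gene's strand, from RefSeq on GRCm38.p6; both genes lie on the minus strand, and capitals mark CACGTG, which reads the same on both strands. The Igf2r window, chr17:12769657-12769956, holds it 2 times. The Grb10 windows, chr11:12037371-12037670 for the upstream start and chr11:12027922-12028221 for the downstream one, do not hold it.
Igf2r: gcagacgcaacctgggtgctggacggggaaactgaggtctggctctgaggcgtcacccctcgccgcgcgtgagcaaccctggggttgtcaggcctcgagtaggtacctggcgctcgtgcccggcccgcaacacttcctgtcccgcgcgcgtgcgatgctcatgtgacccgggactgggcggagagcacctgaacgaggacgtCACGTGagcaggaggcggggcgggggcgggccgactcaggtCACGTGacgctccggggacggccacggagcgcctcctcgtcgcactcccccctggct
Grb10 upstream start: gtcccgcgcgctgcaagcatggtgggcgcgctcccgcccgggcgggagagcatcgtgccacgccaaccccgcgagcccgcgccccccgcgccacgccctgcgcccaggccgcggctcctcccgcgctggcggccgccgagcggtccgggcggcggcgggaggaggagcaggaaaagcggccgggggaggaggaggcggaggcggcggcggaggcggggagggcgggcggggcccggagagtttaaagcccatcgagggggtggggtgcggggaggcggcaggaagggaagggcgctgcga
Grb10 downstream start: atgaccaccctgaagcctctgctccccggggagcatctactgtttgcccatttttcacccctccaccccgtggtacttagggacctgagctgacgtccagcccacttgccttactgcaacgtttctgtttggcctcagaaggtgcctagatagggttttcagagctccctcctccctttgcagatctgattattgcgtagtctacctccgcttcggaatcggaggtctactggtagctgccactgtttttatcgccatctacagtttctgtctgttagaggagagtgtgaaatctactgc

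In the Igf2r window the 2 copies of CACGTG begin at positions -48 and -7, counted from the transcript start. At least 1 copy was present in 7.15% of the 32851 windows in the RefSeq table and 2 or more in 0.594%. Of 16 windows found for 9 of the 10 genes, 2 held it, that of Igf2r and that of Plagl1, where 1 copy begins at position -182. The Grb10 upstream window held 45 CG dinucleotides and the Igf2r window 34, against a median of 7 over all windows, and the Dlk1 window held 9. Methylation was not measured, so these counts do not show whether any of these windows carries an imprint. A match is a run of letters and not a binding site, and a window without one says nothing of Myc binding elsewhere.

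Grb10, an adaptor that binds activated insulin and IGF receptors and dampens their signal, was lower in dKO cells at every probe set. The brightest, 1425458_a_at, read 9.24, 9.68 and 9.61 in the dKO arrays, against 10.95, 10.68 and 10.89 in the control arrays. The highest dKO array was therefore 1 log2 unit below the lowest control array. The log2 change was -1.33 ± 0.17 (SE), a 2.51-fold decrease (limma adjusted p = 0.00716). Probe set 1425457_a_at read 6.68, 6.94 and 6.42 in dKO, against 8.62, 7.98 and 8.41 in control arrays, a log2 change of -1.66 ± 0.22 (3.15-fold, adjusted p = 0.00806). Probe set 1430164_a_at read 5.89, 6.11 and 5.72 in dKO, against 7.71, 7.27 and 6.66 in control arrays, a log2 change of -1.31 ± 0.27 (2.48-fold, adjusted p = 0.0325). The dKO arrays lay together and the control arrays above them at all 3 probe sets, with control replicate 3 the nearest to dKO at the last. The first and second probe sets were called in every setting tried, whereas 1430164_a_at lost its call without control replicate 1 or 2 or any dKO replicate, with adjusted p between 0.0664 and 0.0998. Of 12 measured markers of the sorted stem cells, 6 were called lower and 1 higher, against 3.56% lower and 4.49% higher of all genes. Those lower were Tek, Hlf, Robo4, Hoxb5, Vwf and Kit (log2 changes of -2.25, -1.66, -1.12, -1.10, -1.04 and -0.87). Gata2 was higher (0.63). The mean level of the 12 markers was 8.80 to 9.09 in dKO and 9.62 to 9.70 in control arrays. Slamf1, the gene of the sort marker CD150, was not called (log2 difference 0.08, limma adjusted p = 0.855). Fgd5, Procr, Meis1 and Mecom were not called either (-0.45, -0.36, -0.10 and -0.04). The part of the lower marker level in the Grb10 fall was not tested.

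Igf2r encodes the cation-independent mannose 6-phosphate receptor, which carries lysosomal enzymes and takes up and degrades Igf2. Both probe sets were lower in all dKO arrays than in any control array. Probe set 1424111_at read 5.51, 4.71 and 5.23 in dKO, against 6.80, 6.84 and 6.35 in control arrays, a log2 change of -1.51 ± 0.24 (SE), or 2.85-fold lower (limma adjusted p = 0.0150). Probe set 1424112_at read 5.04, 6.24 and 6.13 in dKO, against 7.59, 7.42 and 6.65 in control arrays, a log2 change of -1.41 ± 0.38 that did not pass (adjusted p = 0.0748). Here dKO replicate 1 stood well below the other dKO arrays, and the highest dKO array came close to the lowest control. Without control replicate 1 or 2 the call of 1424111_at was lost (adjusted p = 0.0511 and 0.0564). The mean over both probe sets gave -1.46 ± 0.21 (adjusted p = 0.00543). For both Igf2r and all 3 Grb10 probe sets an exact permutation test (two-sided) gave p = 0.1, the smallest that 3 arrays against 3 allow.

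The paternally expressed noncoding RNA Airn starts within Igf2r, runs antisense to it, and silences Igf2r on the paternal chromosome in many mouse tissues. It was also lower in dKO cells. Its brightest probe set, 1456139_at, read 6.24, 5.68 and 5.64 in dKO, against 7.42, 7.54 and 6.71 in control arrays (log2 change -1.37 ± 0.27 SE, limma adjusted p = 0.0284). That was 1 of 5 Airn probe sets called, and 4 of the 5 had all dKO arrays below all control arrays. Over the array, groups were apart in either direction at 27.4% of probe sets. At 1446095_at, among those 4, the dKO mean was a background value (3.26), and 1457337_at overlapped between groups (0.15). Omitting any of control replicates 1 and 2 or dKO replicates 2 and 3 lost the call (adjusted p between 0.0840 and 0.0926). The amplified material is not described as strand-specific, so signal from Airn and from unspliced Igf2r RNA may be mixed where they overlap.

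Igf2, the ligand, gave no call. Probe set 1448152_at read 5.60, 5.32 and 4.70 in dKO, against 4.62, 4.60 and 4.64 in control arrays, a log2 change of 0.58 ± 0.23 (SE, 95% interval 0.04 to 1.13, limma adjusted p = 0.203). The dKO arrays were all above the control arrays, dKO replicate 3 by little. Probe set 1415931_at read 3.72, 4.97 and 4.27 in dKO, against 3.58, 4.91 and 5.78 in control arrays, and the groups overlapped (log2 change -0.43 ± 0.56, adjusted p = 0.731). Both lie in the lower part of the array's range, under every array median, so these probe sets leave a change in Igf2 unresolved.

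The receptors and relays that Igf2, Igf2r and Grb10 act on were mostly not called. Of 26 measured genes of the insulin and IGF axis, 3 were called lower and 0 higher, against 3.56% lower and 4.49% higher among 18193 genes each read by its brightest probe set. The list's median log2 change was 0.02, against 0.01 for all genes. Insr, the insulin receptor, was lower at 2 of 3 probe sets; the brightest read 7.92, 7.78 and 7.96 in dKO, against 9.11, 8.93 and 8.63 in control arrays (log2 change -1.004 ± 0.16 SE, limma adjusted p = 0.0158). Foxo3, a transcription factor held in check by this pathway and needed for stem cell dormancy, was lower at all 3 probe sets (log2 changes of -0.80 to -0.71), and the ubiquitin ligase Nedd4, a partner of Grb10, at 2 of 3 (brightest -0.90 ± 0.20, adjusted p = 0.0419). Igf1r, the receptor that carries the Igf2 signal, averaged 10.35 ± 0.36 in dKO and 10.29 ± 0.08 in control arrays (SD, n = 3 each), with a log2 difference of 0.05 (adjusted p = 0.913). Foxo1 came nearest to the threshold of those not called (-1.16 ± 0.28, adjusted p = 0.0522). The count of 3 lower genes was 0 without control replicate 2 or dKO replicate 1, 1 without control replicate 1, control replicate 3 or dKO replicate 3, and 0 with the replicate number as a block. It was 2 with each array centred on its median, and 4 with quantile normalization, a filter on level, a trended prior or array weights.

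Dlk1 and Meg3 neighbour each other on chromosome 12, Dlk1 made from the paternal copy and Meg3 from the maternal. Dlk1 probe set 1449939_s_at read 4.06, 4.25 and 4.70 in dKO, against 3.62, 3.50 and 3.25 in control arrays. All control arrays lay in the negative control range and all dKO arrays just above it, so the difference of 0.88 ± 0.20 on the log2 scale (SE, limma adjusted p = 0.0471) is bounded only as at least 1.34-fold higher, the dKO mean over the highest negative control value. The call was lost when any 1 array was left out, with adjusted p between 0.0639 and 0.127. The brighter Dlk1 probe set, 1442724_at, read 5.47, 4.58 and 5.13 in dKO, against 5.18, 5.32 and 4.78 in control arrays, a log2 difference of -0.03 (95% interval -0.64 to 0.57). The Dlk1 rise thus stands on 1 dim probe set.

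None of the 11 Meg3 probe sets was called, with log2 differences from -0.60 to 0.85 and limma adjusted p from 0.268 to 0.982. The brightest, 1439380_x_at, read 7.39, 7.41 and 7.37 in dKO, against 8.14, 7.72 and 7.34 in control arrays (log2 difference -0.34 ± 0.21 SE, 95% interval -0.84 to 0.15). The dKO arrays were nearly equal while the control arrays were spread, with control replicate 3 at the dKO level. At 2 dimmer probe sets, 1429257_at and 1452906_at, all dKO arrays lay above all control arrays, with differences of 0.34 and 0.28 (adjusted p = 0.271 and 0.358). Probe set 1429256_at had the widest dKO spread, at 3.21, 5.0 and 3.81, against 2.93, 3.05 and 3.49 in control arrays, where every control array was in the background range.

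Rian, a maternally expressed noncoding RNA from the same chromosome 12 domain that hosts small nucleolar RNAs, was higher in dKO cells. Its brightest probe set, 1452899_at, read 6.38, 7.29 and 6.20 in dKO, against 5.09, 4.90 and 4.02 in control arrays (log2 change 1.96 ± 0.37 SE, limma adjusted p = 0.0258), and 2 of its 4 probe sets were called. Omitting any of control replicates 2 and 3 or dKO replicates 1 and 2 lost the call of 1452899_at (adjusted p between 0.0610 and 0.0670). Mirg, the next measured noncoding RNA of the domain, differed by 0.23 ± 0.15 (adjusted p = 0.457). Whether Rian and Meg3 differ in their response was not tested. Stromal cells of marrow can express genes of this domain. Stromal markers had a mean level of 6.07 to 6.19 in dKO and 5.41 to 5.61 in control arrays. Of 13 measured, 2 were called higher, Thy1 and Col6a1, against 4.49% of all genes. Col6a1 averaged 4.09 in dKO but only 3.38, a background value, in control arrays, which bounds its change at 1.13-fold or more. Col1a1 read 8.33, 8.20 and 11.03 in dKO, against 5.86, 6.71 and 6.26 in control arrays (adjusted p = 0.0603), whereas the stromal receptors Lepr, Pdgfra and Pdgfrb differed by -0.08, -0.14 and -0.15. Cxcl12 and Postn were lower too (-0.37 and -0.15), while Col1a2, Col3a1, Acta2, Lum and Kitl were higher, none of them called. Of the 13 markers, Lum alone was at negative control level in dKO and control arrays alike. The part of these cells in the Dlk1 and Rian values was not tested.

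Ndn encodes necdin, a growth suppressor that is a p53 target in mouse blood stem cells. None of its 8 probe sets was called, and the groups overlapped at each of them. The brightest, 1437853_x_at, read 9.10, 9.86 and 9.22 in dKO, against 9.41, 9.43 and 9.38 in control arrays, a log2 difference of -0.02 ± 0.21 (SE, 95% interval -0.51 to 0.48, limma adjusted p = 0.977). The next 3 probe sets had the same form, with dKO replicate 2 above the control arrays and dKO replicates 1 and 3 below them. The dKO SD was 0.41 to 0.42 at these 4 probe sets, against 0.03 to 0.09 in control arrays. Their differences lay between -0.19 and 0.02, and the widest of their 95% intervals ran from -0.70 to 0.33, so an average change of 2-fold in either direction falls outside all 4 intervals. Probe set 1415923_at also overlapped (-0.16 ± 0.28), and the other 3 probe sets were at background in both groups.

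Plagl1 encodes the zinc-finger factor Zac1, which can arrest cell growth and, in mouse, regulates other imprinted genes. Its brightest probe set, 1426208_x_at, read 9.66, 8.81 and 8.47 in dKO, against 7.84, 8.33 and 7.87 in control arrays. Every dKO array was above every control array, though dKO replicate 3 was only slightly above control replicate 2. The log2 change of 0.97 ± 0.31 (SE, 95% interval 0.23 to 1.71) did not pass (limma adjusted p = 0.123). The other 2 Plagl1 probe sets overlapped between groups, with differences of -0.07 ± 0.16 and -0.05 ± 0.18, and no test compared the probe sets with each other.

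Peg3, a zinc-finger protein linked to stem cells in several mouse tissues, was dim. Probe set 1433924_at read 3.49, 5.02 and 4.87 in dKO, against 5.63, 4.34 and 6.03 in control arrays, with overlapping groups and a wide interval (log2 difference -0.87 ± 0.54 SE, 95% interval -2.14 to 0.39, limma adjusted p = 0.417). The remaining 4 Peg3 probe sets had at least 1 group mean in or under the negative control range. Mest, a hydrolase-like protein of developing mesoderm, read 7.08, 7.42 and 7.07 in dKO, against 6.52, 7.44 and 7.27 in control arrays (log2 difference 0.11 ± 0.26, 95% interval -0.49 to 0.72, adjusted p = 0.860).

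**Figure D2:**
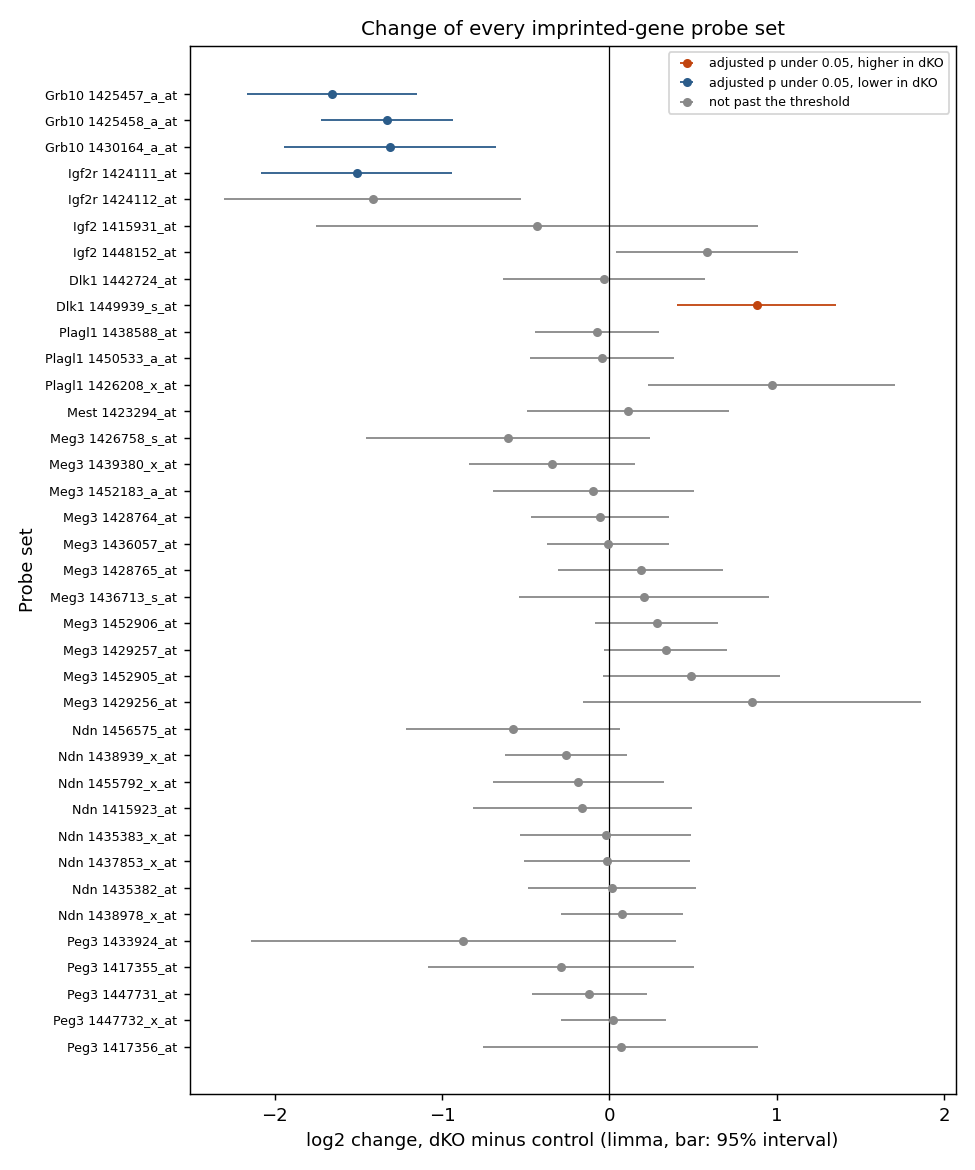
Log2 change, dKO minus control (horizontal axis), of each of the 37 probe sets (vertical axis), with limma's 95% interval as the bar. Blue marks the 4 probe sets called lower, red the 1 called higher and grey the 32 not called. The intervals of Grb10 and Igf2r lie wholly below 0, and those of all 11 Meg3, 8 Ndn and 5 Peg3 probe sets include it.

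By the parental copy usually expressed, the 3 maternally expressed genes with values (Grb10, Igf2r and Meg3) had 4 of 16 probe sets called lower and 0 higher. The 6 paternally expressed genes (Igf2, Dlk1, Ndn, Peg3, Plagl1 and Mest) had 1 of 21 called higher and 0 lower, near the 3.57% called higher across the array, where 3.41% were called lower. The median log2 change was -0.08 in the maternal set and -0.03 in the paternal set. Within the maternal set, Grb10 and Igf2r held all 4 calls and Meg3, with 11 of the 16 probe sets, held 0.

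Of 52 other imprinted genes measured, 3 were called higher, 3 lower and 46 were not called, with a median log2 change of -0.01. These counts are near the shares of all genes, 4.49% called higher and 3.56% lower. Peg10, a paternally expressed gene derived from a retrotransposon, read 7.43, 6.99 and 6.76 in dKO, against 4.90, 5.004 and 4.90 in control arrays, a 4.37-fold rise (log2 change 2.13 ± 0.19 SE, limma adjusted p = 0.00272). Ppp1r9a, which encodes the actin-binding protein neurabin and lies in the same chromosome 6 domain, was lower at all 5 of its probe sets, with log2 changes of -2.41 to -0.92 (adjusted p up to 0.0454). The dKO arrays lay below the control arrays at each of those 5 and above them at the Peg10 probe set.

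Kcnq1ot1, a paternally expressed noncoding RNA that silences neighbouring genes on chromosome 7, was lower at 5 of 6 probe sets. Its brightest read 8.74, 8.62 and 8.95 in dKO, against 9.99, 10.02 and 10.07 in control arrays (log2 change -1.25 ± 0.14 SE, limma adjusted p = 0.00524). Cdkn1c, the cell cycle inhibitor p57 that lies in the domain Kcnq1ot1 controls, read 6.08, 5.995 and 6.05 in dKO, against 6.52, 6.93 and 6.02 in control arrays, with overlapping groups (-0.45 ± 0.23, adjusted p = 0.319). Tssc4 of the same domain was higher by 0.65 ± 0.14 (adjusted p = 0.0402), a call lost when any 1 array was left out (adjusted p between 0.0789 and 0.115). Rian and Airn, described above, were the remaining calls. The 3 higher genes became 1 when any of control replicates 2 and 3 or dKO replicates 1 and 2 was omitted.

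**Figure D3:**
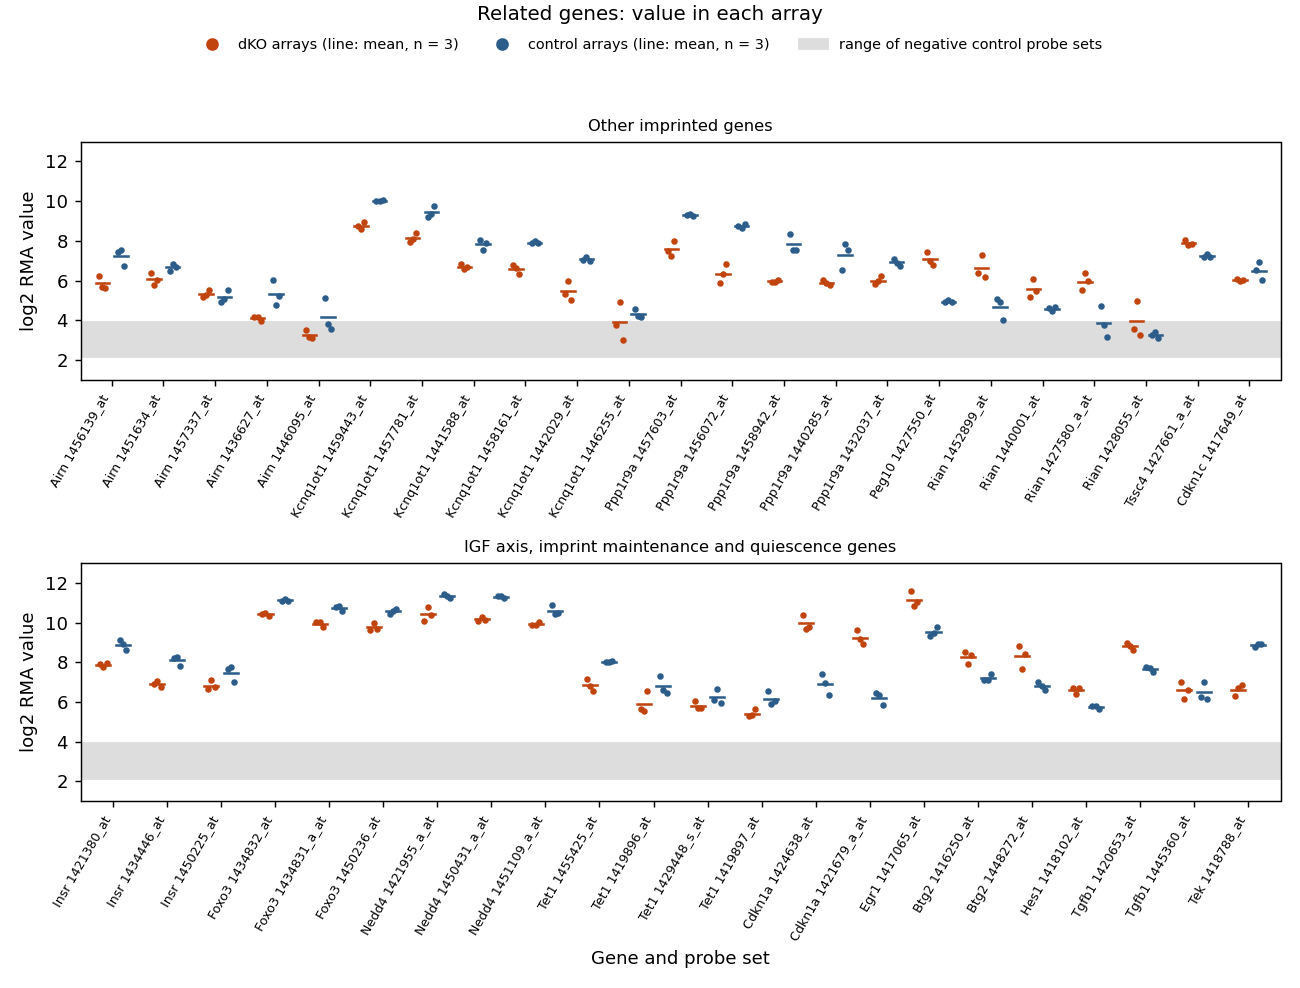
Log2 RMA value (vertical axis) in each dKO array (red) and control array (blue) for every probe set of the other imprinted genes called, with Cdkn1c (upper panel), and of the genes called among the IGF axis, imprint maintenance and quiescence lists (lower panel). Lines are means of 3 arrays and the grey band is the negative control range. All 5 Ppp1r9a and 5 of 6 Kcnq1ot1 probe sets lie lower in dKO, and Peg10 lies higher.

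Of 21 measured genes of the machinery that sets and keeps imprints, 1 was called lower and 0 higher, with a median log2 change of -0.05. Among all genes 3.56% were called lower and 4.49% higher, so these counts do not set the list apart. The gene called was Tet1, which oxidises methylated cytosine: its brightest probe set read 7.18, 6.82 and 6.53 in dKO, against 8.01, 8.02 and 8.05 in control arrays (log2 change -1.18 ± 0.18 SE, limma adjusted p = 0.0138; adjusted p = 0.0506 without dKO replicate 2). That was 1 of 4 Tet1 probe sets, the others having differences from -0.43 to -0.88. Atrx narrowly missed the threshold (-0.54 ± 0.13, adjusted p = 0.0504). Its dKO arrays all lay below its control arrays, as did those of Ehmt2 (-0.67), Trim28 (-0.42) and Stag2 (-0.34), none of them called. For Dnmt1, Uhrf1 (0.56) and Dnmt3a (0.28), also not called, all dKO arrays lay above. Groups were apart in this way at 27.4% of all probe sets, so such separation alone does not set these genes apart. Dnmt1, which copies methylation at replication, differed by 0.39 ± 0.13 (adjusted p = 0.132), and Ctcf, which insulates imprinted domains, by -0.05 ± 0.14 (adjusted p = 0.874).

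Of 20 genes measured from a separate quiescence list, among them the imprinted Cdkn1c, 5 were called higher, 2 lower and 13 were not called, with a median log2 change of 0.08. Among all genes 4.49% were called higher and 3.56% lower. Cdkn1a, the cell cycle inhibitor p21, rose by 3.05 ± 0.30 on the log2 scale, the immediate early factor Egr1 by 1.63 ± 0.23, the growth factor Tgfb1 by 1.15 ± 0.15, the antiproliferative Btg2 by 1.05 ± 0.20 and the Notch target Hes1 by 0.84 ± 0.14 (SE, limma adjusted p up to 0.0242). Tek, the receptor Tie2 that holds stem cells in their niche, fell by 2.25 ± 0.18 and is also among the stem cell markers counted above. Foxo3, given above, was the other lower gene. The second Tgfb1 probe set overlapped between groups (0.11 ± 0.29, adjusted p = 0.884), and the mean over both did not pass (0.63, adjusted p = 0.0710). The calls of Hes1 and Btg2 each failed when control replicate 1, control replicate 2, dKO replicate 1 or dKO replicate 3 was left out (adjusted p between 0.0530 and 0.0794), and Hes1 also without control replicate 3. Foxo3 failed with any 1 array left out (adjusted p between 0.0556 and 0.0721). The 5 higher genes became 3 without control replicate 1, control replicate 2, dKO replicate 1 or dKO replicate 3, and with the replicate block, and the 2 lower became 1 when any control replicate or dKO replicate 3 was omitted. Of 21 measured proliferation genes, 4 were called higher and 0 lower.

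The 10 genes lie on chromosomes 6, 7, 10, 11, 12 and 17, with H19, Igf2, Ndn and Peg3 on chromosome 7. The 5 nearest measured genes on each side of each were read in RefSeq gene order (GRCm38.p6), a comparison chosen after the values were seen. Of 80 distinct neighbours outside the set, 3 were called higher and 5 lower, or 10% in either direction, near the 4.49% higher and 3.56% lower of all genes. Beside Grb10, 1 of 10 was called, the uncharacterised LOC102631979, lower by 1.10 ± 0.19 on the log2 scale (SE, limma adjusted p = 0.0180), while the imprinted neighbour Cobl differed by -0.08. Beside Igf2r only Airn was called. Beside Igf2, the leukocyte actin-binding gene Lsp1 was higher (1.26 ± 0.14) and the tetraspanin Tspan32 lower (-0.87 ± 0.17). Beside Dlk1 and Meg3 only Rian was called, and beside Ndn and Peg3 none of 10 each. Beside Plagl1, Stx11 was higher (1.53 ± 0.19) and Phactr2 lower (-1.04 ± 0.19), and beside Mest the noncoding Lncpint was lower (-0.70 ± 0.16).

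**Figure D4:**
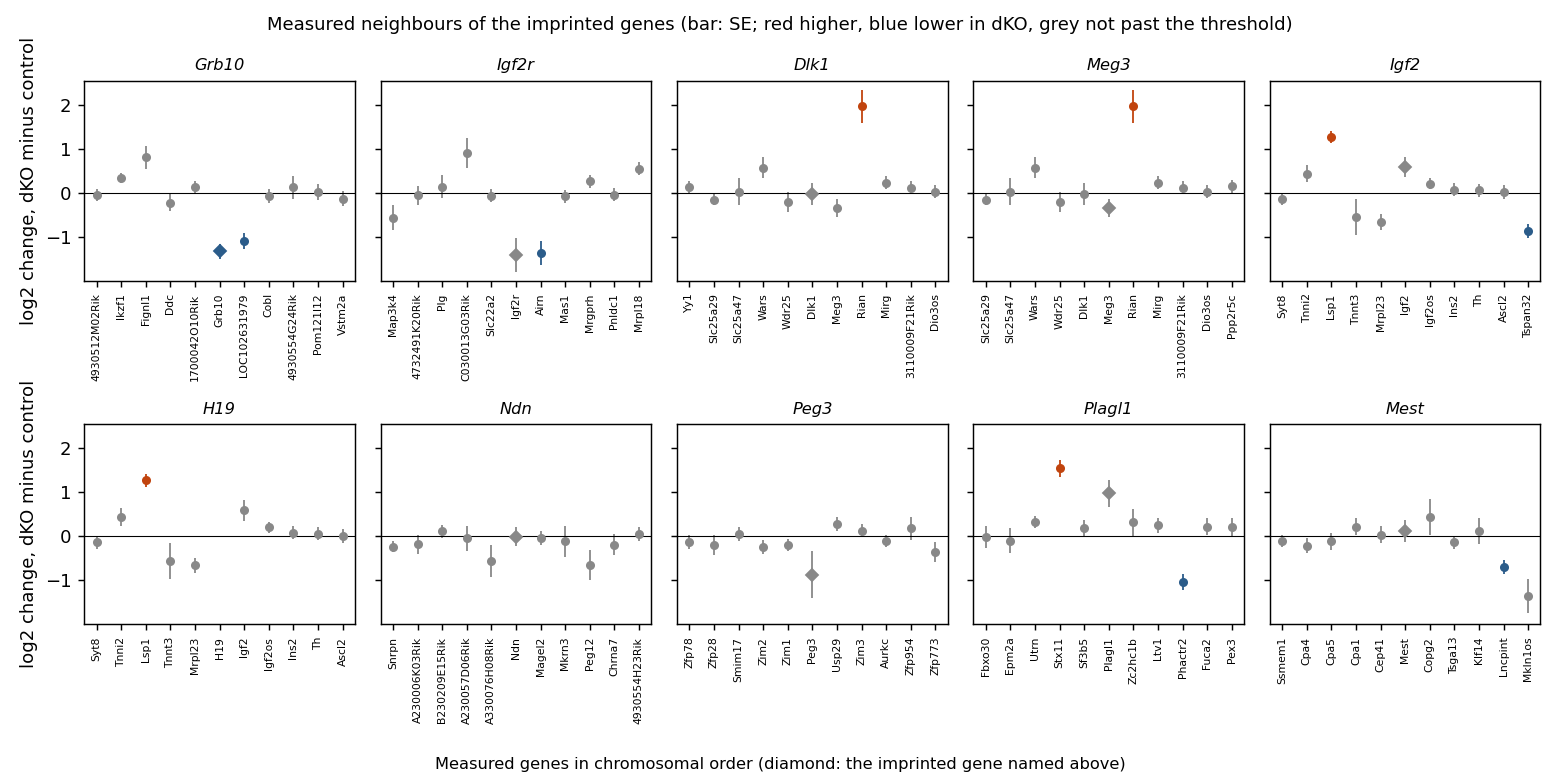
Log2 change, dKO minus control (vertical axis), of the 5 nearest measured genes on each side (circles) and of the imprinted gene itself (diamond, brightest probe set), in chromosomal order (horizontal axis). Bars are SE, red is called higher, blue called lower and grey not called. Grb10 and Airn are marked as called lower and Rian as called higher, and H19 has no point because it has no value.

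The genes whose values ran most like Grb10 probe set 1425458_a_at over the 6 arrays were Ypel3 (Pearson r = 0.998), Cd247 (0.997) and Ppic (0.997), each by its brightest probe set. Ypel3 read 6.21, 6.59 and 6.505 in dKO, against 7.66, 7.54 and 7.69 in control arrays. With 2 groups of 3 arrays, a gene whose dKO arrays lie well below its control arrays tends to score high. Of 18192 other genes, 364 had r above 0.95. This describes likeness alone.

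Markers of other blood cells are given for the cells the sort should leave out. Megakaryocyte markers had 4 of 10 called higher and 1 lower, macrophage markers 2 of 12 higher, and T and NK cell markers 1 of 9 higher. Endothelial markers had 1 of 12 in each direction, erythroid markers 1 of 8 lower, and granulocyte and B cell markers 0 called of 11 and 9. Among all genes 4.49% were called higher and 3.56% lower. The lower megakaryocyte marker, Vwf, is also among the stem cell markers counted above. The largest log2 change of a megakaryocyte marker was 5.67, for Ppbp, while Vwf and Treml1 differed by -1.04 and -0.95. For T and NK markers it was 2.08, for Klrk1, and for macrophage markers 2.05 and 1.79, for Mrc1 and C1qb. Klrk1 and Mrc1 averaged 3.85 and 3.90 in control arrays, background values, which bounds their rises at 4.03-fold and 4.11-fold or more. Of the macrophage markers not called, Adgre1, Csf1r, Ly86 and Cd163 were lower (-0.46, -0.13, -0.12 and -0.003), and the rest were higher by at most 0.63. Of the T and NK markers not called, Cd5 was lower (-0.26), and the rest were higher by at most 0.68. The erythroid gene called was Klf1 (-1.64). Mean levels did not overlap between groups for megakaryocyte markers (8.36 to 8.67 in dKO, 7.59 to 7.75 in control arrays), macrophage markers (5.42 to 5.54 in dKO, 4.80 to 5.23 in control arrays) or T and NK markers (4.99 to 5.30 in dKO, 4.74 to 4.78 in control arrays), all higher in dKO. Erythroid markers did not overlap either and were lower in dKO, as Grb10 and Igf2r were (6.11 to 6.54 in dKO, 6.60 to 6.91 in control arrays). These means include the large changes of single genes named above. The median log2 change was 0.37 for megakaryocyte, 0.30 for macrophage, 0.32 for T and NK and -0.42 for erythroid markers, against 0.01 for all genes. Single probe sets were apart at 27.4% over the array, and no such share was taken for lists. The part of these cells in the values of the imprinted genes was not tested. As a sign of RNA quality, the 3′ minus 5′ signal of Gapdh was 2.39 to 2.47 in dKO and 2.12 to 2.36 in control arrays. These ranges did not overlap, so any effect of RNA quality cannot be told apart from that of genotype.

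**Figure D5:**
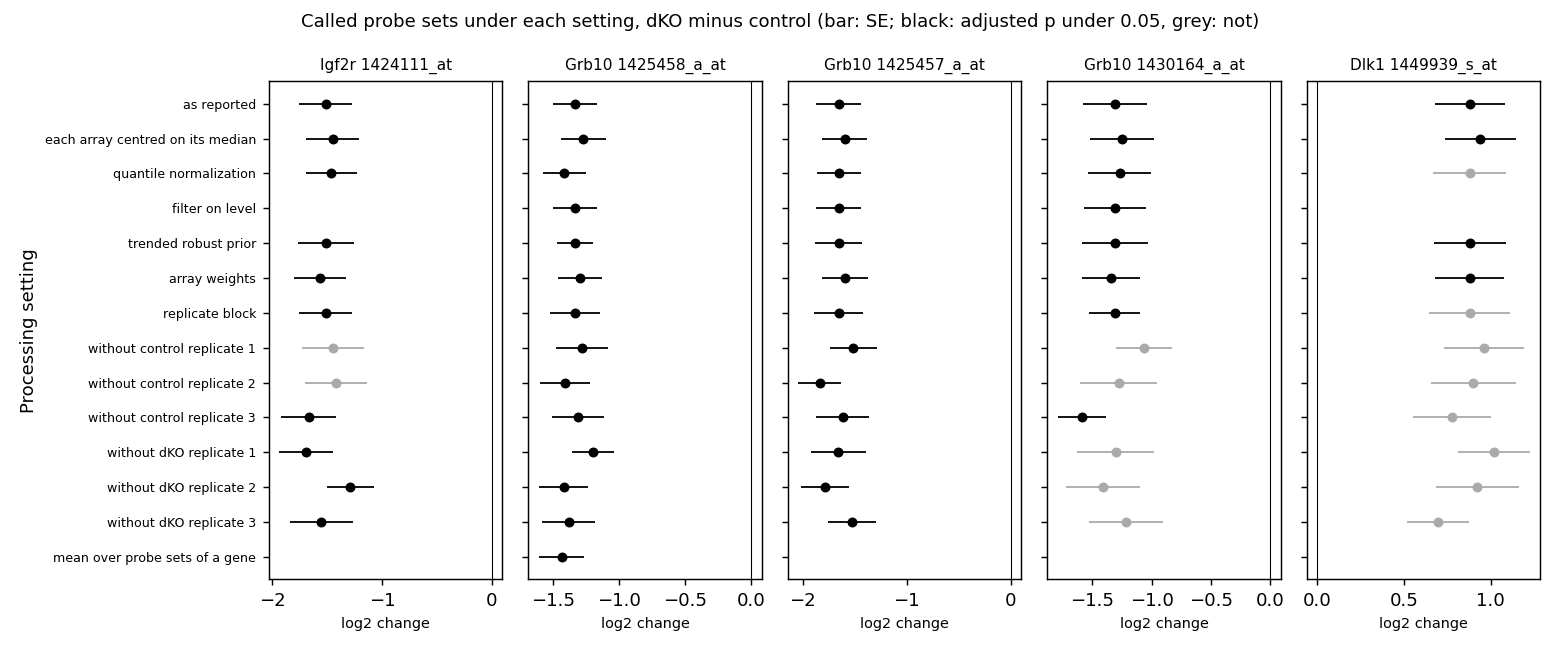
Log2 change, dKO minus control (horizontal axis), of the 5 called probe sets under each processing setting (vertical axis); bars are SE, black points have an adjusted p under 0.05 and grey points do not. Grb10 1425458_a_at and 1425457_a_at are black throughout, and Dlk1 1449939_s_at is grey when any array is left out. A missing point means that the setting gives that probe set no value.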

How the data were processed

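RNA of sorted LT-HSCs was extracted with Trizol, amplified over 2 rounds with a NuGEN kit for very small amounts and hybridised to Affymetrix arrays, per the labels' protocols; such amplification can compress differences. The deposited values are log2 RMA expression values, per the submitters' processing notes for RMA and from the values, 1.49 to 13.85, for the log2 scale. How RMA was run is not given in these sources. RMA scales arrays to each other and compresses changes of dim probe sets.

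Groups came from sample titles. Of 45037 non-control probe sets, 34945 had 1 gene symbol in the platform annotation, 932 several and 9160 none. Each probe set was fitted with limma 3.58.1 (R 4.3.3), lmFit and eBayes, dKO minus control, and adjusted by Benjamini-Hochberg over all of them; lists used each gene's brightest probe set among 18193 genes. The fit was tested on simulated data. SE and 95% intervals are limma's.

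Equal replicate numbers did not pair the arrays (correlations of deviations -0.02, 0.00 and 0.01), so no block was used. Arrays came from different pools of mice, so p-values measure the spread between pools, and 3 per group limit precision. Alternatives were other scalings, a level filter, another prior, array weights, a replicate block, means over probe sets and each array left out. The genes and lists were chosen with earlier results of these data known. Genes named outside the 10 were those called in 4 lists, at most 6 each way; the others named (among them Igf1r, Mirg, Cdkn1c, Dnmt1, Ctcf, markers and neighbours) were chosen after their values were seen, as were probe-set details.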

Additional observations from a re-analysis of the deposited data

How the results depend on the processing

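The lower calls of Grb10 1425458_a_at and 1425457_a_at held in each setting that gave them a value. With each array left out in turn, 2 to 4 of the 37 probe sets were called lower (2 without control replicate 1 or 2) and 0 higher. Of 638 log2 changes of single probe sets recomputed, 533 kept direction and side of the threshold, 61 lost a call, 2 gained one and 42 turned sign; none of the 42 was a called change. The 2 gains were Igf2r 1424112_at after the level filter (adjusted p = 0.0390), which removes 1424111_at and Dlk1 1449939_s_at, and as the mean over probe sets.

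The higher count was 0 with quantile normalization, the level filter, the replicate block or means over probe sets; those means count genes, 2 of them lower. With the replicate block, 0 IGF axis genes were lower, and 3 quiescence genes higher and 1 lower; it changed no other count by over 1.5 times. Lower imprint maintenance genes numbered 2 with quantile normalization, the level filter, the trended prior, array weights or means over probe sets, with 1 higher under the trended prior or those means, which also gave 5 lower other imprinted genes. Leaving out 1 array gave 1 to 2 higher other imprinted genes, 0 to 2 lower IGF axis genes, 0 to 1 lower maintenance genes, and 3 to 5 higher and 1 to 2 lower quiescence genes. Over the array, 1530 probe sets were called with the block and 1338 to 1674 with 1 array left out, against 3146; the fits have fewer residual degrees of freedom.

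The sign turns were of small changes. Centring each array gave 0.0289 for Dlk1 1442724_at, 0.0524 and 0.0059 for Meg3 1436057_at and 1428764_at, 0.0458 and 0.0402 for Ndn 1437853_x_at and 1435383_x_at, and 0.0158 for Plagl1 1450533_a_at. Quantile normalization gave 0.0524 for Meg3 1436057_at and -0.0215 for Ndn 1435382_at, and array weights 0.0119 for Meg3 1436057_at. The mean over probe sets was 0.42 for Dlk1 and 0.11 for Meg3, whose brightest probe sets were below 0. With 1 array left out, the change ran from -1.02 to 0.0802 for Igf2 1415931_at, -0.24 to 0.21 for Dlk1 1442724_at and -0.17 to 0.29 for Mest. For Meg3 it ran from -0.33 to 0.057 (1452183_a_at), -0.0853 to 0.0896 (1436057_at), -0.0578 to 0.58 (1436713_s_at) and -0.18 to 0.0792 (1428764_at). For Ndn it ran from -0.25 to 0.13 (1437853_x_at), -0.25 to 0.16 (1435383_x_at), -0.22 to 0.16 (1435382_at), -0.36 to 0.0928 (1415923_at) and -0.0101 to 0.17 (1438978_x_at). For Peg3 it ran from -0.22 to 0.40 (1417356_at) and -0.0466 to 0.0741 (1447732_x_at), and for Plagl1 from -0.14 to 0.052 (1438588_at) and -0.17 to 0.089 (1450533_a_at). The cause of these shifts was not tested.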
